A study of Mus musculus with 4 samples.

Results

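Expression of 40 named mouse germline genes was examined on day 9 of reprogramming in OG2MEF cells. These are embryonic fibroblasts that carry a green Oct4 reporter. The genes were chosen by symbol, and of the 40 names 37 had a row in the deposited table of 22369 genes. Figla, Rpl10l and Tex101 had none and are not analysed here. The names cover meiotic chromosome genes, the piRNA pathway and early germ cell genes, and they were picked with earlier results of these data in view. Their differences between the groups are therefore given as a description, and nothing is read from how many of them differ.

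Total RNA was sequenced in 4 libraries, 2 labelled as wild-type SOX17 (WT) and 2 as SOX17-V118M, a missense form of this endodermal SOX factor. According to the protocol in the labels, pMX retroviruses carried Sox2 and Klf4 into the cells, with either OCT4, SOX17, SOX17-V118M or GFP added. Culture continued in a medium for mouse embryonic stem cells that held LIF and vitamin C. Both groups share the reporter fibroblasts and this medium, and the labels do not state which viruses each library received. No group of untransduced fibroblasts or GFP controls was analysed here. The labels do not say that replicates came from separate cultures, so p-values reflect only how far these samples differ, and that spread may be technical.

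Germline genes encode the machinery of meiosis, of transposon silencing by piRNAs and of germ cell identity. In somatic cells many of them are held silent by DNA methylation at CpG-rich promoters and by the PRC1.6 complex, in which E2F6 and the MGA-MAX pair bind DNA. Some are reactivated when methylation is lost, as in primordial germ cells. Methylation was not measured in this series, so silencing by methylation is background here and was not tested.

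Values in the table are normalized whole numbers without a unit, and the sorted columns were identical at 76.7% of ranks. Depth is unknown, and a value of 0 is given as listed. Whether the values are per length is not stated, so listed values of different genes are not read as relative RNA levels. V118M replicate 2 stood apart: over 12661 genes its Pearson correlation with the other libraries was 0.954 to 0.964, and the other 3 libraries correlated at 0.986 to 0.990. Fibroblast markers were present in all libraries, with 13 of 13 at 10 or more in at least 1 of them. Of 9 germ cell identity markers, Nanos3, Dppa3, Prdm14, Sohlh1 and Zbtb16 did not exceed 4 in any library, while Dazl reached 69, Ddx4 21, Dnd1 14 and Tfap2c 60. Of 10 pluripotency markers, 5 reached 10 or more in at least 1 library, with Tdgf1 highest at 188, and Nanog lay between 1 and 8. This list leaves out Pou5f1, the gene of OCT4, which was at 61186 in all 4 libraries. The collagen gene Col3a1 was at 61186 too in both WT libraries and in V118M replicate 1. Equal values at such a shared rank do not show equal Pou5f1 RNA. Sox17 was at 3484 and 2880 in WT and 3016 and 2396 in V118M. The source of the Pou5f1 and Sox17 RNA was not tested.

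Promoter sequences are shown for the members that were higher in both V118M libraries than in both WT libraries, by at least 2-fold, with at least 10 in both. These were Sycp3, Asz1, Zscan4f and Nlrp4f, while 2.69% of all tested genes were at least 2-fold higher without overlap of the groups. Sequences are from RefSeq on GRCm38.p6, written 5′ to 3′ in the direction of the gene and ending just before the annotated start, with CpG dinucleotides in capitals. No sequence is given for Nlrp4f, because its window lies within alternative exons of the gene. The stretches are chr10:88459337-88459568 on the plus strand for Sycp3, chr6:18109062-18109311 on the minus strand for Asz1 and chr7:11397665-11397914 on the plus strand for Zscan4f.
Sycp3: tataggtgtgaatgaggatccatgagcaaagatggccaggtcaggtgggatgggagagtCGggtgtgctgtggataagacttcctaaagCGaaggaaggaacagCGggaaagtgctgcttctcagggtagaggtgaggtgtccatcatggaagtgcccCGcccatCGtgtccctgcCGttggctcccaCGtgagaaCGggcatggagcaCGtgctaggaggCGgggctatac
Asz1: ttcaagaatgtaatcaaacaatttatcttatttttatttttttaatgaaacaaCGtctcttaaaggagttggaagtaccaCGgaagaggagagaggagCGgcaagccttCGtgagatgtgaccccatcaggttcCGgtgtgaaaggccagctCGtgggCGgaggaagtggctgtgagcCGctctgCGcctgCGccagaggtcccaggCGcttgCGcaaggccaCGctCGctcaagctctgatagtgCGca
Zscan4f: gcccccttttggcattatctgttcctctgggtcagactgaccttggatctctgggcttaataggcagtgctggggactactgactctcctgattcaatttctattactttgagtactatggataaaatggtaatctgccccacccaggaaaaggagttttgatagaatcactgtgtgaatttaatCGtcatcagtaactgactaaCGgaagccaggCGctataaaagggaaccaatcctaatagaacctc
The Sycp3 stretch of 232 bases held 10 CpGs and the Asz1 stretch of 250 bases held 15, while the Zscan4f stretch of 250 bases held 3. In the Sycp3 stretch, counted from its 5′ end, the E2F-type motif GCGGGAA stood at bases 104 to 110 and the E-box CACGTG at bases 187 to 192 and 208 to 213. Neither motif was found in the windows of Asz1, Zscan4f or Nlrp4f.

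Promoter windows of 300 bases, from 250 before to 50 after the start, were matched for 30 of the 37 genes and for 12941 genes of the whole table. The ratio of observed to expected CpG, which is low where CpGs have been lost over evolution, had a median of 0.74 in the germline genes and 0.68 in all matched genes. It was at least 0.6, a customary mark of a CpG island, in 24 of the 30 (80.0%), against 58.3% of all matched genes. The lowest ratios were those of Nlrp4f (0.18), Zscan4f (0.19) and Tdrd7 (0.23), followed by Sycp2 (0.36), Tdrd12 (0.41) and Tdrd9 (0.43). Of the 4 genes with higher values in V118M, Sycp3 (0.67) and Asz1 (0.78) thus had CpG-rich windows, and Zscan4f and Nlrp4f had CpG-poor ones. The Nlrp4f window lies within alternative exons of the gene, so its ratio may not be that of the promoter in use.

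**Figure D1:**
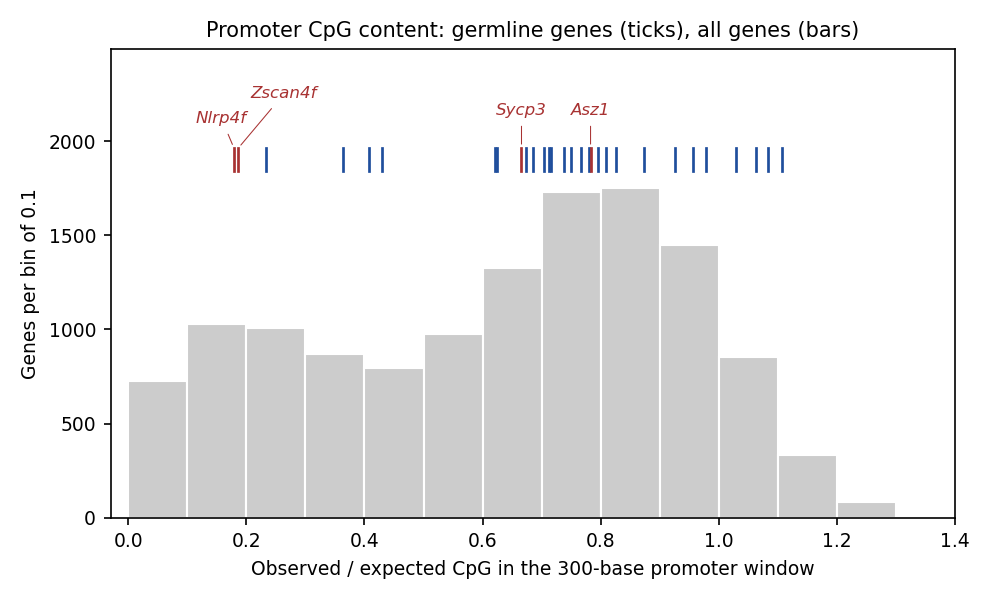
Ratio of observed to expected CpG in the 300-base promoter window (x axis) against the number of genes per bin of 0.1 (y axis, bars, 12941 genes). Ticks mark the 30 germline genes, with the 4 that were at least 2-fold higher in V118M in red. Nlrp4f and Zscan4f sit at the CpG-poor end, and Sycp3 and Asz1 among the CpG-rich genes. The window of Nlrp4f lies within alternative exons of the gene.

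The motifs of the PRC1.6 factors were searched on both strands of the same windows. GCGGGAA, the core of the E2F site, was present in 8 of 30 germline windows (26.7%) and in 7.33% of all matched windows. CACGTG, the E-box bound by MAX partners, was present in 14 of 30 (46.7%), against 9.16% of all. Windows with both motifs numbered 5 of 30 (16.7%), against 0.665% of all. These 5 belonged to Ddx4, Sycp3, Hormad1, Slc25a31 and Stag3. A match describes the letters only, and binding was not measured. The genes that share both motifs did not share a pattern of expression: Hormad1, a meiotic axis gene, was listed at 0 in all 4 libraries, while Sycp3 was listed at 0 in WT alone.

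**Figure D2:**
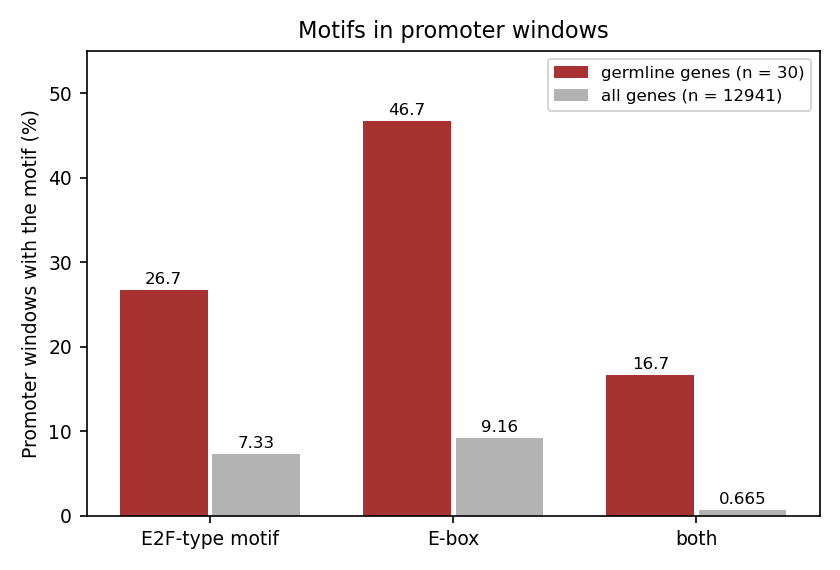
Share of promoter windows (y axis, percent) that hold the E2F-type motif, the E-box or both, in 30 germline genes (red bars) and 12941 matched genes (grey bars). The shares are 26.7%, 46.7% and 16.7% in the germline genes and 7.33%, 9.16% and 0.665% in all genes.

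The 37 genes ranged from 0 in every library to values above 100 in all. In bulk samples like these, fewer cells of a type and less RNA per cell cannot be told apart. Hormad1, Sycp2, Nanos3 and Fkbp6 were listed at 0 in all 4 libraries. A further 7 stayed under 10 in every library: Mov10l1, Dmrt1, Stra8, Tdrd5, Piwil4, Tdrd12 and Mael. The remaining 26 reached 10 or more in at least 1 library. Tex15, Tdrd7, Sycp1 and Prdm1 were above 100 in all 4 libraries. Their values alone do not bear out the description as silenced genes, and silencing was not tested. Prdm1, Kit and Tdrd7 are also known outside the germline. Among the 26, the highest value lay in V118M replicate 2 alone for 11, in V118M replicate 1 alone for 9, in WT replicate 1 alone for 2 and in WT replicate 2 alone for 2. The same counts over all genes were not made, and V118M replicate 2 is the library that stood apart. These counts are therefore not read as a shift of the germline genes.

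**Figure D3:**
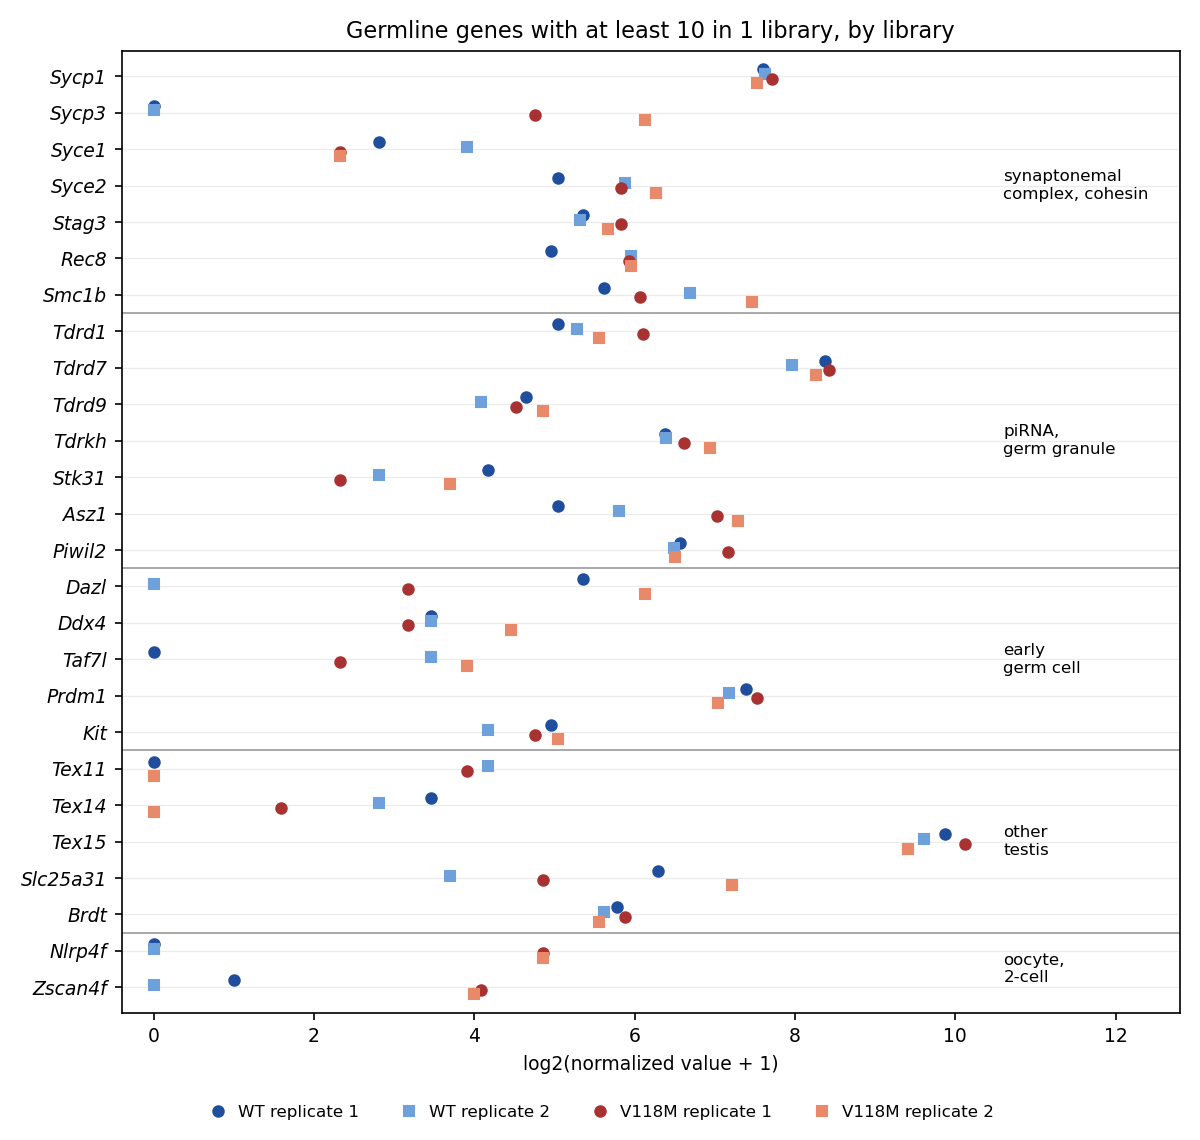
Normalized values of the 26 germline genes with at least 10 in 1 library, as log2(value + 1) (x axis), with 1 row per gene grouped by role. Circles are replicate 1 and squares replicate 2, blue for WT and red for V118M. Sycp3, Asz1, Nlrp4f and Zscan4f have both V118M points to the right of both WT points by more than 1 unit.

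Synaptonemal complex genes build the protein zipper between paired meiotic chromosomes. Sycp3, a lateral element protein (ENSMUSG00000020059, chromosome 10, 88459569 to 88473236), was listed at 0 in both WT libraries, against 26 and 69 for V118M. No fold is given against a group listed at 0. Sycp3 lies inside the annotated span of Chpt1 on the opposite strand, and strand-specific counting is stated in none of the sources at hand. Chpt1, an enzyme of phosphatidylcholine synthesis, was at 228 and 212 in WT and 220 and 251 in V118M, so its groups overlapped. Within the complex itself the members did not move together. The transverse filament gene Sycp1 was at 193 and 196 in WT and 209 and 184 in V118M. Syce1, a central element gene, was at 6 and 14 against 4 and 4, so its highest V118M value was below its lowest WT value. Its partner Syce2 was at 32 and 58 against 56 and 76, with overlapping groups.

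Meiotic cohesin genes, whose products hold sister chromatids together, gave values in every library. Stag3 was at 40 and 39 in WT and 56 and 50 in V118M, and its groups did not overlap. For Rec8, the kleisin subunit, the values were 30 and 61 against 60 and 61. Smc1b, the meiotic SMC subunit, was at 48 and 102 against 66 and 176, with the higher value of each group in replicate 2. Only Stag3 of these 3 genes had groups that did not overlap, and its log2 difference of 0.41 had a standard error of 0.27.

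In the piRNA pathway, Asz1, a germ granule protein needed for piRNA production (ENSMUSG00000010796, chromosome 6, 18050964 to 18109061), had groups that lay apart. It was at 32 and 55 in WT and 129 and 156 in V118M, that is 43.5 ± 16.26 against 142.5 ± 19.09 (SD, n = 2 each). The log2 difference, V118M minus WT on the log2(value + 1) scale used throughout, came to 1.73 (standard error 0.33), with a range of 1.35 to 2.11 when each library was left out in turn. Wnt2, the gene of the table within 50 kb of Asz1, was at 182 and 191 against 224 and 246, a log2 difference of 0.33. Both genes thus had higher values in both V118M libraries, with the larger difference at Asz1.

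Tudor domain proteins scaffold the piRNA machinery. Tdrd1 was at 32 and 38 in WT and 68 and 46 in V118M, with a log2 difference of 0.67 and a standard error of 0.32. Tdrkh, which tethers PIWI proteins to mitochondria, was at 82 and 83 against 97 and 122 (log2 difference 0.39, standard error 0.23). These 2 genes had groups that did not overlap, as did Asz1. Groups overlapped for Tdrd7, at 330 and 248 against 344 and 306, and for Tdrd9, a helicase of the pathway, at 24 and 16 against 22 and 28. Piwil2, a PIWI protein itself, was at 94 and 89 against 142 and 90, so its V118M replicates differed by more than the groups. The kinase-like gene Stk31 was at 17 and 6 against 4 and 12. Piwil4, Mov10l1, Mael, Tdrd5 and Tdrd12 never exceeded 3.

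Early germ cell genes varied mainly between replicates. Dazl, an RNA-binding regulator of germ cell entry into meiosis, was at 40 and 0 in WT and 8 and 69 in V118M. Taf7l, a germ cell paralogue of a TFIID subunit, was at 0 and 10 against 4 and 14. For Ddx4, the germ cell helicase VASA, the values were 10 and 10 against 8 and 21. The receptor gene Kit was at 30 and 17 against 26 and 32, and the transcription factor gene Prdm1 at 166 and 144 against 183 and 130. In this role group no gene had groups that did not overlap. Dmrt1 and Stra8, a sex-determination factor and the retinoic acid target that opens meiosis, reached at most 1 in any library.

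Among the other testis genes, Slc25a31 and Tex11 differed most between replicates. Slc25a31, the germ cell ADP/ATP carrier, was at 77 and 12 in WT and 28 and 148 in V118M, so that WT replicate 1 and V118M replicate 2 were the high libraries, as for Dazl. Tex11, an X-linked meiosis gene, had the reverse layout, at 0 and 17 against 14 and 0. Tex14, a protein of germ cell bridges, was at 10 and 6 in WT and 2 and 0 in V118M, with a log2 difference of -2.34 and a standard error of 0.75. Its groups did not overlap, and the difference was -3.13 to -1.55 when each library was left out, the smaller size being without V118M replicate 2. The bromodomain gene Brdt was at 54 and 48 against 58 and 46. Tex15, which acts in meiotic recombination and transposon silencing, was at 932 and 778 against 1114 and 680. Its table row cites a transcript of 706 bases.

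Oocyte and 2-cell-stage genes were represented by 2 rows, both higher in V118M. Nlrp4f, an oocyte gene of the NLRP family (chromosome 13, 65177111 to 65205977), was listed at 0 in both WT libraries and at 28 in both V118M libraries. Zscan4f, a marker of cells that pass through a 2-cell-like state (chromosome 7, 11397915 to 11402318), stood at 1 and 0 against 16 and 15. Reads of near-identical copies could be split between members of both families. Zscan4d, the other Zscan4 copy in the table, was listed at 0 in all 4 libraries, and the related oocyte genes Nlrp4a, Nlrp4c and Nlrp4e did not exceed 4 in any library. The 2-cell-stage list of 19 genes had 8 rows, of which Eif1a, a translation initiation factor gene, was at 4146 and 4300 against 3964 and 4569. The other 7 did not exceed 6 in any library, with Zfp352 at 2 and 6 against 6 and 3. Groups overlapped in all 4 tested genes of the list, which is too few to read against the 28.0% of all tested genes whose groups did not overlap.

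Across the germline genes, 29 of 37 passed the filter of at least 1 in at least 2 libraries and were tested with all other genes. Of these, 4 had groups that did not overlap and reached 1 in both libraries of the higher group only. They were Sycp3, Nlrp4f and Zscan4f, higher in V118M, and Tex14, higher in WT. Dazl, Taf7l and Tdrd12 also reached 1 in both libraries of 1 group only, but their groups overlapped. Sycp3 and Nlrp4f, listed at 0 in both WT libraries, had to differ once they had passed. Zscan4f and Tex14 did not have to, but they were near 0 in the lower group. The counts that hold these genes are descriptions only. By limma with Benjamini-Hochberg adjustment over 19547 genes, 0 of the 29 passed an adjusted p of 0.05, where 0.00% of all tested genes passed. At an unadjusted p under 0.05 there were 5, where 4.01% of all tested genes lay. These were Sycp3, Asz1, Nlrp4f and Zscan4f as higher (4, beside 2.31% of all tested genes) and Tex14 as lower (1, beside 1.70%). Groups did not overlap in 9 of 29 (31.0%), against 28.0% of all tested genes. Of the 9, 7 were higher (13.2% of all tested genes) and 2 lower (14.8%). Groups that did not overlap together with a difference of at least 2-fold were found for 6, against 5.50% of all tested genes: the 4 genes higher in V118M (2.69% of all tested genes), and Syce1 and Tex14 as lower (2.81%). Without Sycp3, Nlrp4f, Zscan4f and Tex14, 25 were left, with 5 whose groups did not overlap. Of these 5, 2 were apart by at least 2-fold (Asz1 and Syce1), and 1 had an unadjusted p under 0.05 (Asz1). The 4 left out were picked among genes without overlap, so these counts had to fall. The number apart by at least 2-fold was 10 without WT replicate 1, where the share of all tested genes was 8.15%, and 9 without WT replicate 2 (9.18%) or V118M replicate 1 (14.9%). Without V118M replicate 2, the library that stood apart, it was 6, beside 7.29% of all tested genes, and of these Asz1, Zscan4f, Syce1 and Tex14 were in the reported set. Sycp3 and Nlrp4f then failed the filter, as they also did without V118M replicate 1.

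Of the 29, 21 had a positive and 8 a negative log2 difference (72.4% positive, where 50.0% of all tested genes were). The median was 0.34, or 0.33 without the 2 genes listed at 0 in a whole group, and it was 0.00 over all tested genes. The median moved with single libraries. Without WT replicate 1 it was 0.20, and without WT replicate 2 it was 0.05, with 15 positive among 27. Without V118M replicate 2 it was 0.23. Replicates within a group often lay further apart than the groups. The difference between groups exceeded the gap between replicates in both groups for 8 of the 26 genes with at least 10 in a library: Sycp3, Asz1, Nlrp4f, Zscan4f, Tex14, Tdrd1, Tdrkh and Stag3. The same share over all tested genes was not computed, so nothing is read from this count.

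**Figure D4:**
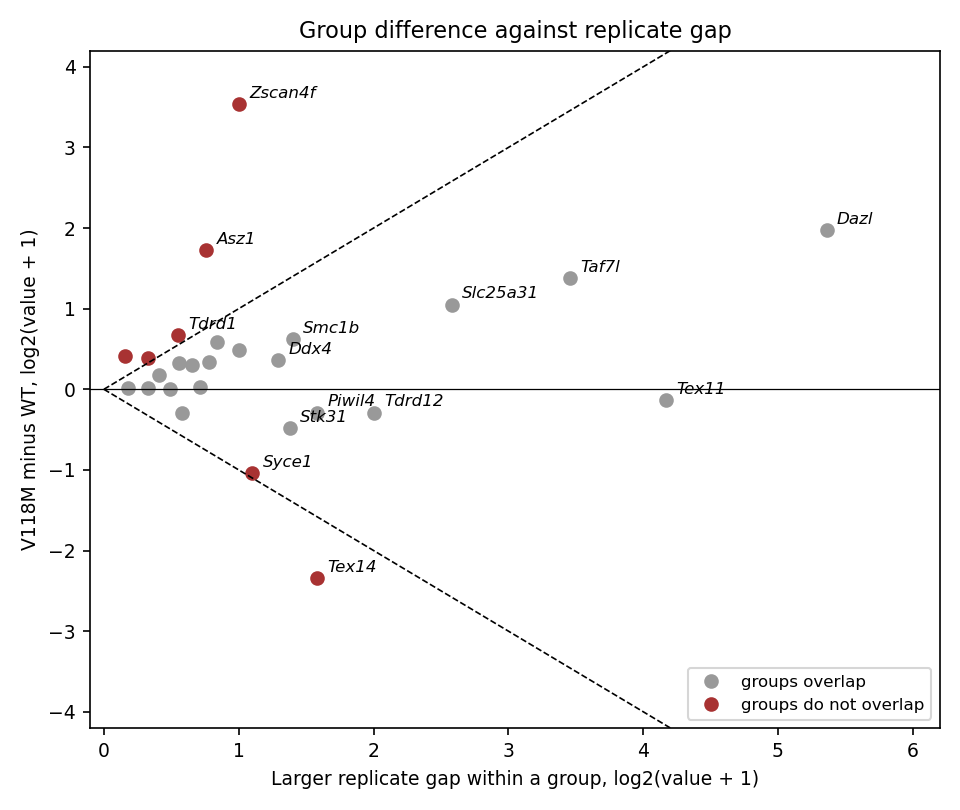
Log2 difference between V118M and WT (y axis) against the larger gap between replicates within a group (x axis), both on the log2(value + 1) scale, for 27 tested germline genes not listed at 0 in a whole group. Dashed lines mark equality, and red points have groups that do not overlap. Zscan4f and Asz1 lie well above the upper line, while Dazl, Taf7l, Slc25a31 and Tex11 lie far to the right, between the lines.

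Related genes outside the 40 names were read from lists of the same pathways. In these lists 0 genes passed an adjusted p of 0.05 by limma. At an unadjusted p under 0.05, where 4.01% of all tested genes lay, there were 2 of 10 tested oocyte genes, 1 of 21 other meiotic, 1 of 14 other piRNA, 1 of 9 other early germ cell and 1 of 9 spermatid genes. In the 2-cell-stage (4 tested), methylation enzyme (15) and repressor (22) lists there were 0. Other meiotic chromosome genes had a median log2 difference of 0.02, with 11 of 21 tested genes positive and 10 negative. Hfm1, a crossover helicase, was at 7 and 40 in WT and 66 and 146 in V118M. For Dmc1 and Spo11, which carry out and start meiotic recombination, no library exceeded 2. Other piRNA pathway genes had a median of -0.13, with 5 of 14 positive. Ddx25, a germ cell helicase, was at 24 and 10 against 26 and 60, and the germ granule gene Rnf17 was at 110 and 134 against 83 and 39. The 2 genes thus had groups that did not overlap, in opposite directions.

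Early germ cell genes outside the 40 names had a median of -0.12 over 9 tested genes, and of 0.22 without those listed at 0 in a whole group. Dppa2, the gene with the smallest p of that list, was at 2 and 6 against 0 and 0. Oocyte genes had a median of 0.10 over 10 tested genes, or -0.16 without those at 0 in a group. Zar1, a maternal effect gene, was at 2 and 3 against 8 and 10, and Lhx8, an oocyte homeobox gene, at 2 and 0 against 7 and 8. Spermatid genes, which mark the later haploid stage, had a median of 0.04 over 9 tested genes, or 0.18 without those at 0 in a group, and 12 of their 14 rows stayed under 10 in every library. Smcp, a sperm mitochondrial gene, was at 4 and 2 against 0 and 0.

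For the enzymes that place or remove DNA methylation, the median log2 difference of their genes was -0.02 over 15 tested genes, 7 positive and 8 negative, and 0.18 without V118M replicate 2. Dnmt1, the maintenance methyltransferase, was at 1474 and 1318 in WT and 1582 and 1114 in V118M, and its recruiter Uhrf1 at 967 and 758 against 1165 and 752. Both had overlapping groups. Zfp57, which guards methylation at imprinted regions, was at 79 and 90 against 104 and 141. The repressor genes of PRC1.6, G9a and SETDB1 had a median of 0.03 over 22 tested genes, 13 positive and 9 negative. E2f6 was at 620 and 618 against 601 and 662, and Mga at 2132 and 1908 against 2125 and 1518. The histone demethylase gene Kdm1a was at 1107 and 1062 against 1203 and 1384, with groups that did not overlap.

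**Figure D5:**
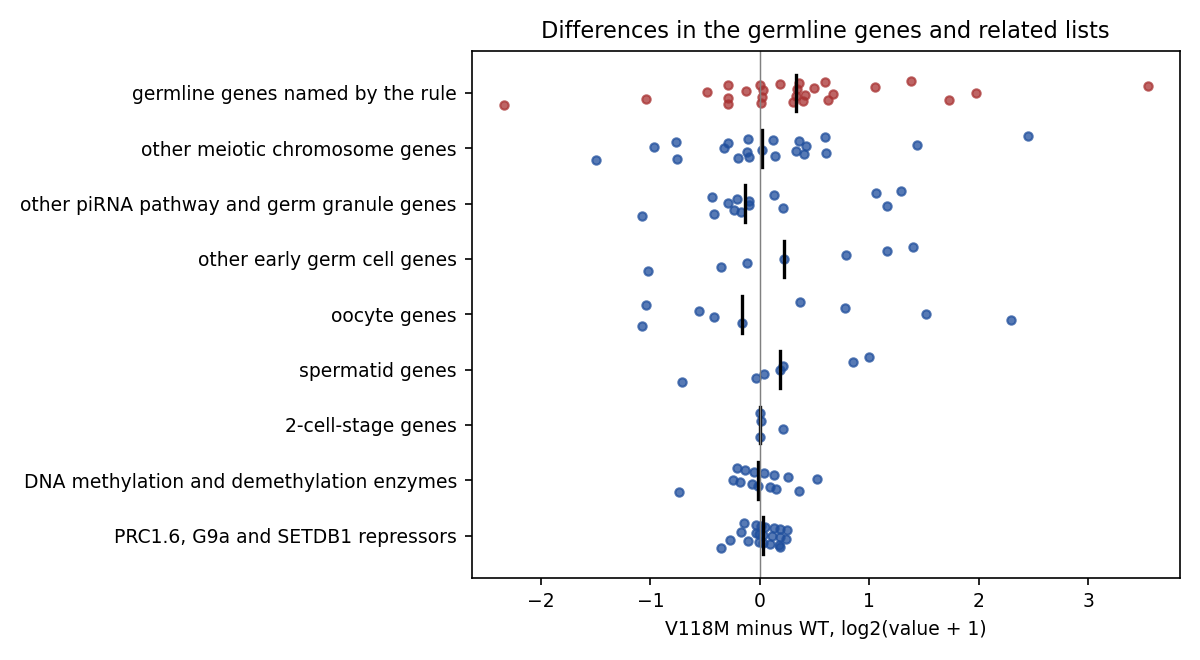
Log2 differences between V118M and WT (x axis) for the tested genes of the 40 germline names (red) and of 8 related lists (blue), 1 point per gene, without genes listed at 0 in a whole group. Vertical bars are medians of the plotted points. The methylation enzymes and repressors cluster around 0, and the germline lists spread to both sides. Many genes of the germline lists have values under 10 and larger standard errors, so the widths are not compared.

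Markers of other cell types were set beside these values. Pluripotency markers, without Pou5f1, had summed values of 183 and 240 in WT and 316 and 295 in V118M. Of 7 tested genes 5 were positive, and Dppa4 was at 0 in all libraries. Among them Utf1 was at 10 and 17 against 33 and 38. Keratinocyte and epithelial markers summed to 22447 and 22032 against 25630 and 29356, with 5 of 10 positive and 5 negative. The basal keratin gene Krt5 was at 246 and 199 against 664 and 731, and Krt14 at 4752 and 4358 against 5802 and 8053. Krt8 was lower without overlap, at 6702 and 6490 against 6332 and 5972, as was Cdh1, at 3492 and 3492 against 3425 and 2822. The sums of both lists were thus higher in both V118M libraries, as were Sycp3, Asz1, Nlrp4f and Zscan4f. The part of these cell types in the germline values was not tested.

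Leukocyte markers summed to 871 and 815 in WT and 612 and 628 in V118M, with 2 of 10 positive and 7 negative. Ptprc, the CD45 gene, was at 165 and 58 against 30 and 0. Gonadal somatic markers summed to 465 and 382 against 497 and 397, with overlapping groups. Amh, Nr5a1, Dhh and Cyp17a1 did not exceed 6. Sox9, at 360 and 309 against 399 and 321, supplied most of the sums. Star was at 42 and 38 against 45 and 30, while Wt1 reached 28, Gata4 16 and Inha 14. Germ cell identity markers summed to 117 and 70 against 86 and 143, and Dazl supplied most of the difference between replicates.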

How the data were processed

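Per the submitters' processing notes, mm10, FastQC, RSEM, Bowtie2 and DESeq2 were used, with no role or version stated for each. The deposited table holds a normalized score per gene, rounded to whole numbers by the authors. It is not a raw count table: the column totals lay between 12855482 and 12859613, so depth is unknown and no counting interval is given. Gene spans are from GENCODE M21 (GRCm38), in which 22304 transcripts of the table were found. Promoters are RefSeq windows (GRCm38.p6) on the same strand with a start within 500 bases of the table's.

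Values were taken as log2(value + 1), a gene needed at least 1 in 2 or more libraries, and limma 3.58.1 in R 4.3.3 (trend and robust, group as the only term, two-sided, Benjamini-Hochberg over all genes) was fitted. The fit was checked on simulated data. Only genes with higher mean values were changed there, so the check does not cover members listed near 0. Alternatives were pseudocounts of 0.1 and 5, other filters, array weights, removal of a length and GC trend, the replicate block, and each library left out.

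The members and lists were chosen with earlier results of these data known. Members with at least 10 in 1 library are described with all values. Of each list, the tested gene with the smallest p is named, with up to 4 genes whose groups did not overlap, differed at least 2-fold and reached 10. Other genes were named after their values were seen.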

Additional observations from a re-analysis of the deposited data

How the results depend on the processing

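Under every alternative run, 0 of the germline genes passed over all genes tested. The number of all genes passing was 0, except 3 with the replicate block. The labels do not say that equal replicate numbers mark a shared source. Same-numbered deviations correlated at 0.303 over 12661 genes, in a design with 2 numbers only. With the block the median of the germline genes stayed at 0.34.

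The differences of Asz1, Zscan4f, Tex14, Syce1, Tdrd1, Tdrkh and Stag3 kept their direction under all alternatives in which they were tested (Tex14 and Syce1 failed the stricter filter). For Asz1 they ranged from 1.35 to 2.11. With pseudocounts of 5 and 0.1 the differences were -1.12 and -4.10 for Tex14 and 1.90 and 5.55 for Zscan4f. For Syce1 the difference was -0.49 without WT replicate 2. The germline median was 0.18 with no filter and 0.05 to 0.48 when each library was left out. The number with groups apart by at least 2-fold was then 6 to 10, while the share of all tested genes rose from 5.50% to between 7.29% and 14.9%.

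With the stricter filter, the median was 0.13 for other meiotic chromosome genes and 0.78 for oocyte genes. With the length and GC trend removed it was 0.12 for methylation enzymes and 0.05 for repressors. With each library left out, medians were -0.10 to 0.02 for other meiotic chromosome genes and -0.15 to 0.05 for other piRNA genes. They were -0.48 to 0.22 for other early germ cell genes, -0.16 to 0.18 for oocyte genes and -0.24 to 0.42 for spermatid genes. They were -0.23 to 0.61 for 2-cell-stage genes, -0.11 to 0.18 for methylation enzymes and 0.03 to 0.10 for repressors. The cause of these shifts was not tested. With libraries left out, the medians of the lists took both signs, except that of the repressors, which stayed positive. Values under about 10 rest on an unknown number of reads.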
